A study of Mus musculus with 9 samples.

Results

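Histones are the proteins that DNA is wrapped around in the nucleus. The genes that encode them were followed here in activated mouse CD8 T cells whose cultures differed in what was added. The gene set was every row of the deposited expression table whose symbol begins with Hist and a digit, or with H1f, H2af, H2bf or H3f, which gave 60 of 16344 rows. Of these, 46 were clustered genes (the symbols that begin with Hist) and 14 were histone variant rows. The variant rows comprised 10 protein-coding genes, 3 rows annotated as processed pseudogenes (H3f3a-ps1, H3f3a-ps2 and H3f3c) and 1 antisense transcript (H3f3aos); no symbol began with H2bf. CD8 T cells of wild-type mice, taken from spleen and lymph nodes, were activated through CD3 and CD28 with antibodies, and 100000 cells went into each sample. The cells stayed overnight in DAHB with oligomycin at 10 nM (DAHB+O), in DAHB at 20 mM (DAHB), or in NaCl at 20 mM (NaCl, the control). No DAHB dose is recorded for the DAHB+O samples. Oligomycin blocks the mitochondrial ATP synthase. The series' title names mitochondrial ATP production and chromatin accessibility, and the DAHB+O group puts the ATP synthase inhibitor on top of DAHB. Each group had 3 libraries, all with 1 genotype and 1 batch label, and libraries were made from RNA enriched for poly(A) tails.

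Clustered histone genes supply the bulk histones that package newly copied DNA, and their mRNAs are made mainly in S phase. Most of these mRNAs carry no poly(A) tail: they end just after a short stem-loop, which the stem-loop binding protein SLBP holds during processing and translation. Variant histone genes are transcribed through the cell cycle, carry introns and poly(A) tails in most cases, and give H3.3, H2A.Z, H2A.X, macroH2A and the like, which replace bulk histones at particular places in the genome. Because the libraries were enriched for poly(A), the value of a clustered gene covers only the transcripts that were captured, and the part without a tail was not measured.

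The stem-loop sets the clustered genes apart at the sequence level, so its letters were looked up in the 3′ UTR of each gene model (GENCODE vM21, GRCm38). The pattern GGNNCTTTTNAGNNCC was found in 33 of the 46 clustered genes and in 1 variant gene, H2afx, against 61 of 21022 protein-coding genes with a 3′ UTR, which is 0.290%. The 61 include these histone genes. Another 8 clustered models held no 3′ UTR, and 5 held one without the pattern, among them Hist2h2be, Hist1h2bc and Hist1h1a. The most frequent form of the loop, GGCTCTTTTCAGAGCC, stood in 17 clustered genes. The sites of 6 genes that the results below turn on are shown, 5′ to 3′ on the gene's own strand, with the stem-loop in capitals.
Hist1h4i, chr13:22040961-22040986, minus strand: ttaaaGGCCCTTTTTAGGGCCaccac
Hist1h4d, chr13:23581945-23581970, plus strand: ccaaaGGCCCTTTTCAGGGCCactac
Hist1h2bk, chr13:22036295-22036320, plus strand: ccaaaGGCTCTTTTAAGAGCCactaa
Hist1h3c, chr13:23745042-23745067, minus strand: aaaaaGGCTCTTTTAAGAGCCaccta
Hist1h1c, chr13:23739507-23739532, plus strand: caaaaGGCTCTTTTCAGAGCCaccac
H2afx, chr9:44335235-44335260, plus strand: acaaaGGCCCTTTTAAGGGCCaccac
The models of Hist1h2bk and Hist1h3c stopped 30 and 74 bases after the loop. Those of Hist1h4i, Hist1h1c, Hist1h4d and H2afx ran on for 330, 840, 770 and 822 bases, and the models of Hist1h4i, Hist1h1c and H2afx closed with a poly(A) signal (AATAAA or ATTAAA in the last 50 bases). Such a signal closed 12 of the 46 clustered models.

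The values are normalized counts, that is, the reads assigned to a gene scaled by 1 factor per library, and each library held between 28146402 and 39207045 assigned reads. The labelled cell type was checked against its markers, and 7 of 7 CD8 T cell markers were present, with a summed level of 74083 to 79816 in DAHB+O, 100101 to 104654 in DAHB and 86285 to 95186 in NaCl libraries. Markers of other cells moved with the groups. The 5 B cell markers found (of 6; Pax5 was not in the table) summed to 2000 to 2177 in DAHB+O, 2679 to 2884 in DAHB and 7580 to 8108 in NaCl libraries, and the 5 dendritic cell markers found (of 6; Siglech was not in the table) to 8379 to 9081 in DAHB+O, 5689 to 6453 in DAHB and 2536 to 2714 in NaCl libraries. The 3 natural killer cell markers found (of 4) summed to 1170 to 1351 in DAHB+O, 974 to 1511 in DAHB and 614 to 794 in NaCl libraries, and the 2 CD4 T cell markers to 209 to 254 in DAHB+O, 214 to 234 in DAHB and 155 to 198 in NaCl libraries. The 6 monocyte and macrophage markers summed to 315 to 379 in DAHB+O, 153 to 220 in DAHB and 224 to 327 in NaCl libraries, and the 2 neutrophil markers found (of 4) to at most 8.93 in DAHB+O, 30.8 to 98.0 in DAHB and at most 17.7 in NaCl libraries. The 1 erythroid marker found (of 4) stood at no more than 9.06 in any library. Their part in the results below was not tested. In bulk RNA, fewer cells of a type and less RNA per cell cannot be told apart. The dendritic cell sum was over Flt3, Xcr1, Batf3, H2-Aa and Cd74, and the natural killer cell sum over Ncr1, Klrb1c and Eomes. A sum does not show which of its genes carried it or which cells its reads came from.

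Variant genes supplied most of the histone reads. The 14 variant rows summed to 40595, 40197 and 41243 normalized counts in the DAHB+O libraries, 44042, 45482 and 42316 in the DAHB libraries and 50693, 51248 and 52942 in the NaCl libraries. Each group lay below the next without overlap, DAHB+O lowest and NaCl highest. The 46 clustered rows summed to 1802, 1676 and 1577 in the DAHB+O libraries, 1760.3, 1563 and 1476 in the DAHB libraries and 1504, 1582 and 1598 in the NaCl libraries, and these groups overlapped. As a share of all reads, the clustered sums averaged 0.00519% in DAHB+O, 0.00464% in DAHB and 0.00442% in NaCl cells, and the variant sums 0.125% in DAHB+O, 0.127% in DAHB and 0.146% in NaCl cells. On that scale the variant sums of DAHB+O and DAHB libraries overlapped, at 0.124% to 0.126% in DAHB+O and 0.124% to 0.130% in DAHB, and both lay below the NaCl libraries. Per kilobase of exon, the median clustered gene stood at 27.5 normalized counts in DAHB+O, 33.0 in DAHB and 28.0 in NaCl cells, and the median variant row at 685 in DAHB+O, 640.4 in DAHB and 721 in NaCl cells. Hist1h4i, a histone H4 gene, held the highest clustered level per kilobase, with 369.7 in DAHB+O, 316 in DAHB and 601 in NaCl cells.

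The first comparison set DAHB against its NaCl control. H2afx was the variant with the largest drop: it encodes H2A.X, the histone that is phosphorylated around DNA double-strand breaks, and its level in DAHB cells was less than that in NaCl cells in every library. H2afz, H3f3a and H3f3b were also lower, whereas H2afy, H1f0, H1fx and H2afy2 were higher. Of the 12 variant rows tested, 4 were higher, 4 were lower and 4 did not pass an adjusted p of 0.05 in limma (Benjamini-Hochberg over all 14169 genes with a mean of at least 10). Across all genes tested, 73.9% passed, 35.5% higher and 38.4% lower, so the variants' share lay near that of all genes. One of the 4 higher rows, H2afy2, reached the minimum mean only through the groups in which it was high; the other 11 gave 3 higher and 4 lower. The median log2 fold change of the 12 was -0.098, beside -0.017 over all genes. Among all genes with a mean of 500 to 20000, 27.8% were higher and 54.0% lower, with a median of -0.16. The 8 variant rows at that level had 2 higher and 4 lower, with a median of -0.17. Fold changes are on the scale of log2(normalized count + 1), DAHB over NaCl.

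H2afx stood at 2059, 2041 and 2117 in the DAHB+O libraries, 1330.4, 1345 and 1109.5 in the DAHB libraries and 2844, 2951 and 3045 in the NaCl libraries. The 3 groups did not overlap, with DAHB lowest and NaCl highest. The log2 fold change of DAHB against NaCl was -1.23 ± 0.062 (SE, limma adjusted p = 1.31e-10).

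H2afz and H2afv encode the 2 H2A.Z proteins, which mark nucleosomes beside promoters. H2afz stood at 9202, 8917 and 9176 in the DAHB+O libraries, 7175, 7183 and 6182 in the DAHB libraries and 9949, 9555 and 10173 in the NaCl libraries. It was lower in all 3 DAHB libraries than in any other library, with a log2 fold change of -0.53 ± 0.051 (SE, limma adjusted p = 1.71e-07). Of its 50-base windows, 69.6% also occur in transcripts of other genes, so its reads are less certain than those of the other coding variants. H2afv stood at 2438, 2526 and 2383 in DAHB and 2301, 2409 and 2465 in NaCl libraries. The groups overlapped, and the log2 difference was 0.034, with a 95% interval of -0.062 to 0.13 (limma adjusted p = 0.505). With quantile normalization, which forces the libraries to 1 distribution of log2 values, it came to 0.20 and passed as higher (adjusted p = 0.000822).

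H3f3a and H3f3b encode the same H3.3 protein, the form of H3 that is placed outside of DNA replication. H3f3b, the variant with the highest level per kilobase in the NaCl and DAHB groups, stood at 11666, 11335 and 11401 in the DAHB+O libraries, 13145, 13960.3 and 12573 in the DAHB libraries and 17103, 16961 and 17663 in the NaCl libraries. H3f3a stood at 3429, 3429.5 and 3723 in the DAHB+O libraries, 3658, 3838 and 3385 in the DAHB libraries and 5744, 6086 and 6163 in the NaCl libraries. Both were lower in DAHB than in NaCl cells without overlap, by log2 fold changes of -0.38 ± 0.040 (SE, limma adjusted p = 4.49e-07) for H3f3b and -0.73 ± 0.050 (SE, limma adjusted p = 4.05e-09) for H3f3a. H3f3a shares 638 of its 3504 exon bases with Gm17275 and 160 with H3f3aos, both on the opposite strand, and the sources used here do not say whether counting used strand. Gm17275 stood at 26.2 ± 8.51 in DAHB and 53.4 ± 2.10 in NaCl cells (SD, n = 3 each), and H3f3aos at 5.01 ± 2.63 in DAHB and 15.8 ± 3.67 in NaCl cells. The 2 pseudogene rows that were tested, H3f3a-ps1 and H3f3a-ps2, had log2 fold changes of -0.23 and -0.79 and did not pass. Their sequences share most 50-base windows with other genes, and their calls turned on the setting. H3f3a-ps2 passed as lower with edgeR's quasi-likelihood test (adjusted p = 0.0437), a pseudocount of 10 (0.0355), a fit without the third group (0.0238), a block for replicate number (0.0417) and quantile normalization (log2 fold change -1.48, adjusted p = 0.00284), and H3f3a-ps1 with quantile normalization (-0.96, adjusted p = 0.000435).

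H2afy encodes macroH2A1, an H2A with a large extra domain that is found in silent chromatin, and H2afy2 encodes its relative macroH2A2. H2afy stood at 9192, 9302 and 9589 in the DAHB+O libraries, 12744, 12953 and 13171 in the DAHB libraries and 9655, 10299 and 10489 in the NaCl libraries. The DAHB libraries were above all others, and the log2 fold change of DAHB against NaCl was 0.35 ± 0.038 (SE, limma adjusted p = 6.33e-07). H2afy2 was near the limit of detection, at 16.04, 16.1 and 18.7 in the DAHB+O libraries, 35.8, 13.6 and 25.03 in the DAHB libraries and 2.07, 1.97 and 0.906 in the NaCl libraries. The NaCl libraries held 2, 2 and 1 reads of H2afy2, against 74 reads in the 3 DAHB libraries together, a ratio of 15.2 after scaling (95% interval 6.25 to 48.3, counting error only). H2afy2 shares 233 of its 2175 exon bases with Aifm2 on the opposite strand, and Aifm2 stood at 354 ± 30.5 in DAHB and 185 ± 12.6 in NaCl cells (SD, n = 3 each).

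H1f0 and H1fx encode linker histones, which sit where DNA enters and leaves the nucleosome; H1f0 gives H1.0, known from cells that have stopped dividing. H1f0 stood at 2041, 2084 and 2255 in the DAHB+O libraries, 2636, 2863 and 2618 in the DAHB libraries and 2277, 2221 and 2170.1 in the NaCl libraries. H1fx stood at 139, 130.2 and 142 in the DAHB+O libraries, 116, 113 and 127 in the DAHB libraries and 43.4, 47.2 and 36.2 in the NaCl libraries. Both were higher in every DAHB library than in any NaCl library, H1f0 by a log2 fold change of 0.28 ± 0.049 (SE, limma adjusted p = 8.38e-05) and H1fx by 1.48 ± 0.13 (SE, limma adjusted p = 8.44e-08). H1fx shares 213 of its 1217 exon bases with Gm5577 on the opposite strand. H2afj, which encodes H2A.J, stood at 720.4, 621 and 687 in DAHB and 688, 637 and 649.7 in NaCl libraries. These overlapped, with a log2 difference of 0.037, with a 95% interval of -0.13 to 0.21 (limma adjusted p = 0.689). H3f3aos and H3f3c, the antisense transcript and the third pseudogene, had means of 8.08 and 5.46 over the 9 libraries and were not tested.

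**Figure D1:**
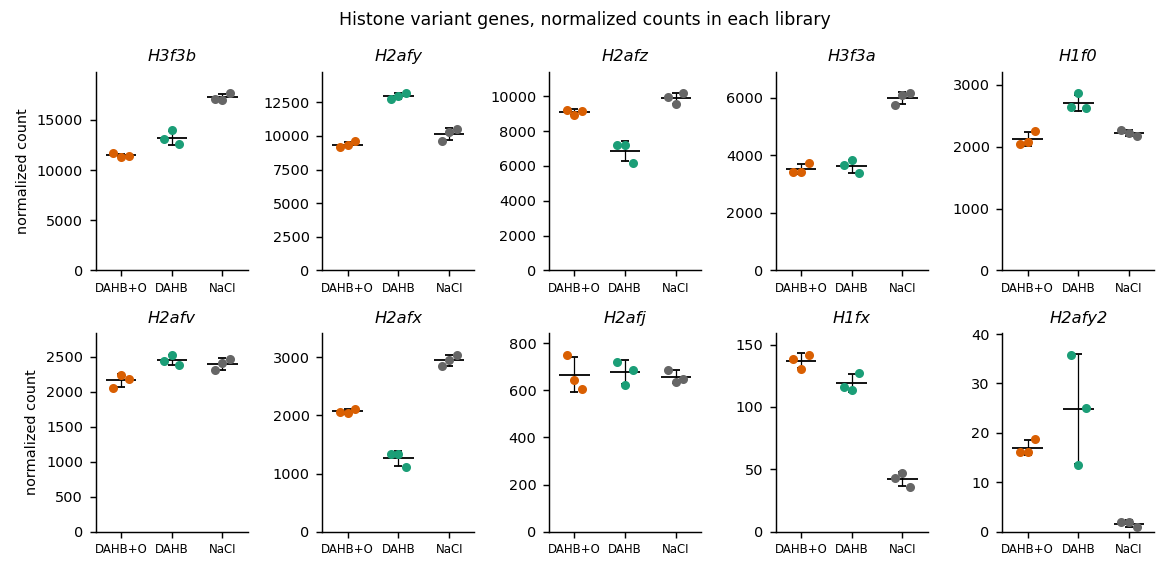
Normalized counts (vertical axis, from 0) of the 10 protein-coding histone variant genes in each library; points are the 3 libraries of DAHB+O, DAHB and NaCl cells, horizontal lines are means and error bars SD. H2afx and H2afz are lowest in the DAHB libraries, H2afy and H1f0 are highest there, and H3f3a and H3f3b are highest in the NaCl libraries.

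Among the clustered genes, 3 were lower in DAHB than in NaCl cells and 11 were higher. Of the 46, 35 had a mean of at least 10 and were tested; the other 11 had means of 1.85 to 8.72. Of the 35, 11 were higher, 3 were lower and 21 did not pass, beside the 35.5% and 38.4% of all genes given above. Their median log2 fold change was 0.35. In 4 of them the mean was under 10 in one of the groups compared, and of these 4, Hist1h1a was called higher. The other 31 gave 10 higher and 3 lower. Most clustered genes were weakly detected, and weakly detected genes in general tended to be higher in DAHB cells. Among all 2522 genes with a mean of 10 to 50, 41.8% were higher and 8.72% lower, with a median of 0.43, where 25 clustered genes had 6 higher, 0 lower and a median of 0.35. Among all 3876 genes with a mean of 50 to 500, 46.2% were higher and 27.8% lower, with a median of 0.19, where 10 clustered genes had 5 higher, 3 lower and a median of 0.21. The direction of the class also rested on the scaling. With quantile normalization, 3 clustered genes were higher and 12 lower, with a median of -0.34, and the median over all genes with a mean of 10 to 50 became -0.23.

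The 3 lower genes were Hist2h2be, Hist1h2bc and Hist1h4i. Hist1h4i encodes histone H4 and had the highest mean of the clustered rows, at 282, 278 and 246 in the DAHB+O libraries, 261, 222 and 206 in the DAHB libraries and 424, 447 and 440.4 in the NaCl libraries. The NaCl libraries were above all others, and the log2 fold change of DAHB against NaCl was -0.93 ± 0.093 (SE, limma adjusted p = 2.47e-07). Hist1h4i weighed on the sum over the class: without it, the log2 ratio of the clustered sums, DAHB over NaCl, was 0.29, against 0.035 with it.

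Hist2h2be and Hist1h2bc encode histone H2B, and Hist2h2be is best known from olfactory neurons of the mouse. Hist2h2be stood at 44.4, 44.9 and 61.6 in the DAHB+O libraries, 34.8, 43.6 and 32.3 in the DAHB libraries and 114, 112 and 103 in the NaCl libraries. Hist1h2bc stood at 41.5, 42.6 and 37.5 in the DAHB+O libraries, 50.7, 32.9 and 34.4 in the DAHB libraries and 66.2, 92.4 and 98.8 in the NaCl libraries. In both genes every DAHB library lay below every NaCl library, with log2 fold changes of -1.56 ± 0.17 (SE, limma adjusted p = 9.65e-07) for Hist2h2be and -1.11 ± 0.20 (SE, limma adjusted p = 0.000152) for Hist1h2bc. The models of both genes hold a 3′ UTR without the stem-loop letters. All 3 genes stayed lower and past the threshold under every alternative run, quantile normalization and each left-out library included.

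Among the linker histone genes of the clusters, Hist1h1a, which encodes H1.1, had the largest rise of all clustered genes. It stood at 20.8, 21.9 and 10.7 in the DAHB+O libraries, 33.8, 34.9 and 38.6 in the DAHB libraries and 5.17, 12.8 and 9.97 in the NaCl libraries. All DAHB libraries were above all other libraries, and the log2 fold change of DAHB against NaCl was 1.91 ± 0.34 (SE, limma adjusted p = 0.000117). Hist1h1c, which encodes H1.2, stood at 155, 142 and 129 in the DAHB+O libraries, 113, 126 and 98.02 in the DAHB libraries and 81.7, 80.6 and 85.2 in the NaCl libraries. Its log2 fold change was 0.44 ± 0.13 (SE, limma adjusted p = 0.00556), and it turned to -0.17 with quantile normalization. Hist1h1e, which encodes H1.4, stood at 63.2, 79.5 and 40.2 in the DAHB+O libraries, 82.6, 64.9 and 74.04 in the DAHB libraries and 73.4, 81.6 and 78.8 in the NaCl libraries. Its groups overlapped, with a difference of -0.083, with a 95% interval of -0.52 to 0.35 (limma adjusted p = 0.728), but with quantile normalization it passed as lower (-0.75, adjusted p = 0.00493). It shares 496 of its 1930 exon bases with Hist1h2be on the same strand. The mean of Hist1h1a in NaCl cells was under the minimum of 10. The values of Hist1h1b and Hist1h1d, which did not pass, both came to a log2 fold change of 0.35.

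Among the H2B genes, Hist1h2bk and Hist1h2bj were higher. Hist1h2bk stood at 56.6, 61.1 and 49.1 in the DAHB+O libraries, 72.6, 66.8 and 70.9 in the DAHB libraries and 27.9, 22.6 and 27.2 in the NaCl libraries. Hist1h2bj stood at 117, 105 and 104 in the DAHB+O libraries, 118, 97.8 and 93.9 in the DAHB libraries and 58.9, 68.8 and 54.4 in the NaCl libraries. All DAHB libraries of both genes lay above all NaCl libraries, by log2 fold changes of 1.41 ± 0.17 (SE, limma adjusted p = 2.03e-06) and 0.76 ± 0.14 (SE, limma adjusted p = 0.000175). Of their 50-base windows, 74.2% in Hist1h2bk and 59.4% in Hist1h2bj also occur in transcripts of other genes, which makes their reads less certain. Over the 11 H2B genes tested, 3 were higher, 2 lower and 6 did not pass. Of the 3 H2A genes tested, Hist1h2ae was higher and 2 did not pass.

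Among the H3 and H4 genes, Hist1h3c and Hist1h4d were higher. Hist1h3c, which encodes H3, stood at 178, 134 and 148 in the DAHB+O libraries, 165, 136 and 93.9 in the DAHB libraries and 80.7, 85.5 and 69.8 in the NaCl libraries. Hist1h4d, which encodes H4, stood at 159, 138 and 124 in the DAHB+O libraries, 130.4, 129 and 90.7 in the DAHB libraries and 54.8, 46.2 and 47.1 in the NaCl libraries. No DAHB library overlapped a NaCl library in either gene, and the log2 fold changes were 0.70 ± 0.18 (SE, limma adjusted p = 0.00242) for Hist1h3c and 1.21 ± 0.16 (SE, limma adjusted p = 5.55e-06) for Hist1h4d. With quantile normalization, Hist1h3c and Hist1h2bj no longer passed (adjusted p = 0.655 and 0.56), while Hist1h4d, Hist1h2bk and Hist1h1a did. Hist1h3e, an H3 gene, stood at 53.7, 37.8 and 64.7 in DAHB and 44.5, 55.1 and 54.4 in NaCl libraries, which overlapped, and with quantile normalization it passed as lower (log2 fold change -0.71, adjusted p = 0.00369). Other genes' transcripts also hold 73.4% of the 50-base windows of Hist1h3e. Of the 8 H3 genes tested, 2 were higher and 6 did not pass. Of the 8 H4 genes, 3 were higher, 1 was lower and 4 did not pass.

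**Figure D2:**
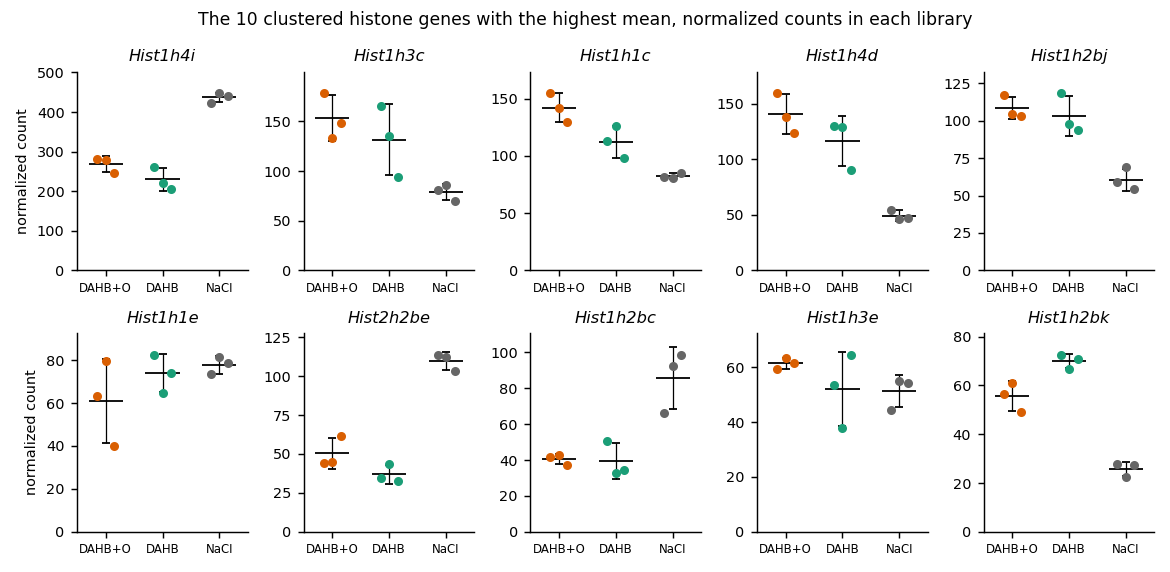
Normalized counts (vertical axis, from 0) of the 10 clustered histone genes with the highest mean, in each library; points are the 3 libraries of DAHB+O, DAHB and NaCl cells, lines are means and error bars SD. Hist1h4i, Hist2h2be and Hist1h2bc are highest in the NaCl libraries, and Hist1h3c, Hist1h1c, Hist1h4d, Hist1h2bj and Hist1h2bk are lowest there.

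The second comparison set oligomycin on top of DAHB against DAHB alone, and 2 variants that were lower in DAHB than in NaCl cells, H2afx and H2afz, were higher in DAHB+O than in DAHB cells. H2afx was higher in DAHB+O than in DAHB cells by a log2 fold change of 0.72 ± 0.062 (SE, limma adjusted p = 1.04e-07), and H2afz by 0.41 ± 0.051 (SE, limma adjusted p = 4.98e-06). Both were higher in all 3 DAHB+O libraries than in any DAHB library. H2afy and H1f0, which were highest in DAHB cells, were lower in DAHB+O cells, by -0.47 ± 0.038 (SE, limma adjusted p = 5.57e-08) and -0.35 ± 0.049 (SE, limma adjusted p = 1.69e-05). H3f3b was lower by -0.20 ± 0.040 (SE, limma adjusted p = 0.000397), and with quantile normalization it did not pass (adjusted p = 0.113). H3f3b and H2afv were below DAHB in every DAHB+O library; H2afv stood at 2054, 2243 and 2181 in DAHB+O libraries, with a log2 fold change of -0.18 ± 0.045 (SE, limma adjusted p = 0.00253). H3f3a differed by -0.039, with a 95% interval of -0.15 to 0.068 (limma adjusted p = 0.515), H1fx by 0.20, with a 95% interval of -0.082 to 0.49 (limma adjusted p = 0.2), H2afj by -0.023, with a 95% interval of -0.19 to 0.15 (limma adjusted p = 0.816) and H2afy2 by -0.42, with a 95% interval of -1.26 to 0.41 (limma adjusted p = 0.36). Of the 12 variant rows, 2 were higher, 4 lower and 6 did not pass, beside 33.1% higher and 29.5% lower among all genes (62.6% called). Among all genes with a mean of 500 to 20000, 40.7% were higher and 33.0% lower. The 8 variant rows at that level had 2 higher and 4 lower. This comparison shares the DAHB libraries with the first.

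Among the 35 clustered genes tested in DAHB+O against DAHB, 4 were higher, 3 were lower and 28 did not pass, with a median log2 fold change of -0.029, beside 0.016 over all genes. Among all genes with a mean of 10 to 50, 11.3% were higher and 23.2% lower, where 25 clustered genes had 1 higher and 3 lower, and among those with a mean of 50 to 500, 32.2% were higher and 26.1% lower, where 10 clustered genes had 3 higher and 0 lower. Hist1h4f, an H4 gene at 24.5, 18.4 and 27.7 in DAHB+O and 12.9, 11.6 and 10.4 in DAHB libraries, was higher by 0.94 ± 0.32 (SE, limma adjusted p = 0.0187). Hist2h2be, Hist1h1c and Hist1h4i were higher by 0.43 ± 0.17 (SE, limma adjusted p = 0.0428), 0.34 ± 0.13 (SE, limma adjusted p = 0.0288) and 0.23 ± 0.093 (SE, limma adjusted p = 0.0416). The 3 lower genes were the linker histone genes Hist1h1a and Hist1h1b and the H3 gene Hist1h3g. Hist1h1a was lower by -1.03 ± 0.34 (SE, limma adjusted p = 0.016) without overlap. Hist1h1b, which encodes H1.5, stood at 14.2, 16.1 and 17.9 in DAHB+O and 24.9, 30.99 and 23.98 in DAHB libraries, and Hist1h3g at 17.9, 24.2 and 13.4 in DAHB+O and 30.8, 26.1 and 28.2 in DAHB libraries; their log2 fold changes were -0.69 ± 0.28 (SE, limma adjusted p = 0.0442) and -0.63 ± 0.26 (SE, limma adjusted p = 0.0447). With quantile normalization 5 clustered genes were higher and 0 lower. Each of the 7 calls was lost when at least 1 library was left out, Hist1h1a without DAHB+O replicate 3 (limma adjusted p = 0.0864). The higher genes numbered 1 without DAHB replicate 3 or DAHB+O replicate 1 and 2 without DAHB+O replicate 2 or 3, and the lower genes numbered 1 without DAHB replicate 1 or 2 or DAHB+O replicate 1 and 0 without DAHB+O replicate 3.

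**Figure D3:**
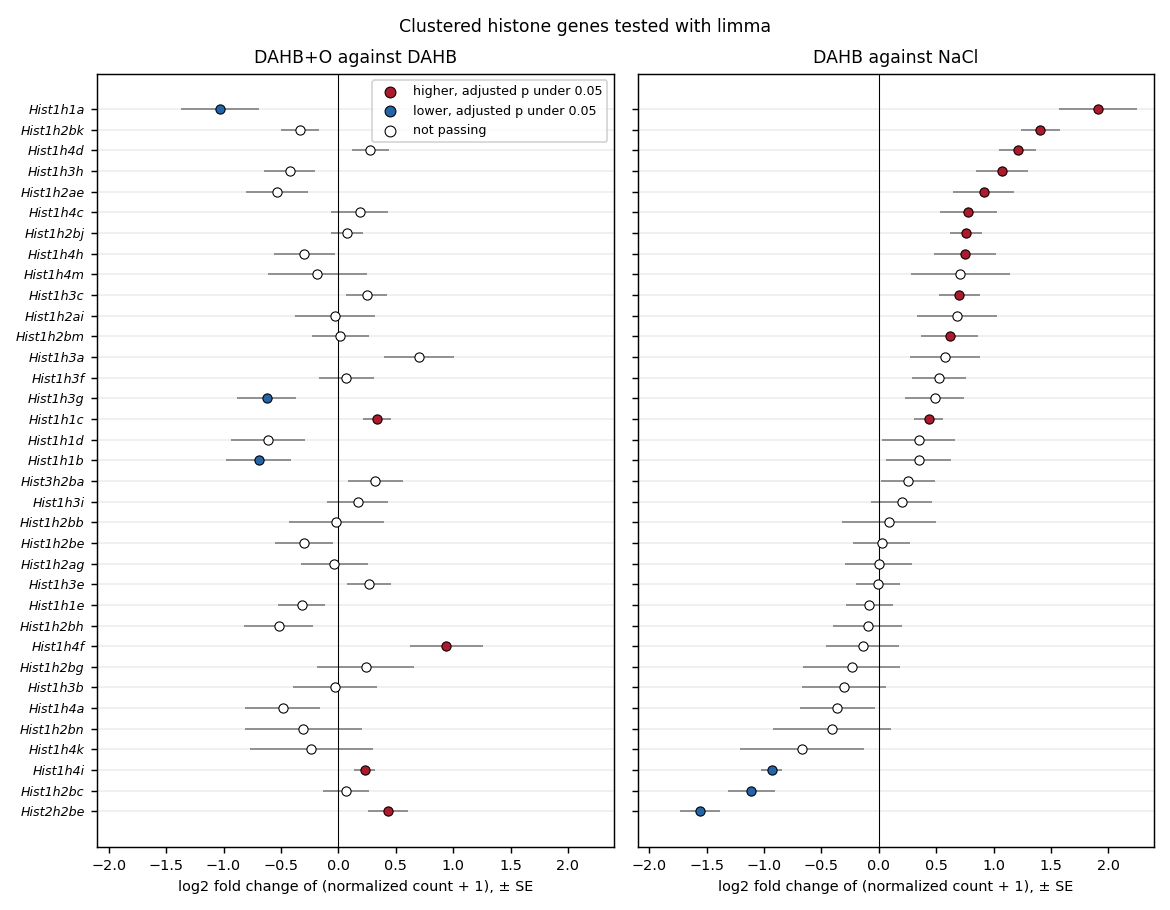
Log2 fold change of each of the 35 tested clustered histone genes (horizontal axis, on the scale of log2 of normalized count + 1) for DAHB+O against DAHB and for DAHB against NaCl; lines are SE, red and blue points passed an adjusted p of 0.05 in limma as higher or lower, and white points did not. Genes run down the page by their change in DAHB against NaCl, where 11 are red and 3 are blue; against DAHB, 4 are red and 3 are blue in DAHB+O cells.

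Set against NaCl, DAHB+O cells had lower levels of the H3.3 and H2A.X genes and a higher level of H1fx. H3f3a was lower by -0.77 ± 0.050 (SE, limma adjusted p = 2.18e-09), H3f3b by -0.59 ± 0.040 (SE, limma adjusted p = 3.46e-09) and H2afx by -0.51 ± 0.062 (SE, limma adjusted p = 2.52e-06), each without overlap. H1fx was higher by 1.68 ± 0.13 (SE, limma adjusted p = 1.89e-08). H2afy2 was above NaCl in every DAHB+O library, with a scaled read ratio of 10.5 (95% interval 4.24 to 33.8, counting error only). H2afv, H2afy and H2afz were lower by -0.15 ± 0.045 (SE, limma adjusted p = 0.0081), -0.12 ± 0.038 (SE, limma adjusted p = 0.0127) and -0.12 ± 0.051 (SE, limma adjusted p = 0.0454). With quantile normalization the H2afv, H2afy and H2afz values turned to 0.022, 0.11 and 0.099. H2afy also failed the threshold without NaCl replicate 2 or 3 (adjusted p = 0.0523 and 0.0735), and H2afz passed in none of the fits with 1 library left out other than that without NaCl replicate 2. H1f0 differed by -0.065, with a 95% interval of -0.17 to 0.039 (limma adjusted p = 0.24) and H2afj by 0.014, with a 95% interval of -0.16 to 0.18 (limma adjusted p = 0.882). The pseudogene row H3f3a-ps2 had a log2 fold change of -1.26, and H3f3a-ps1 differed by -0.40, with a 95% interval of -0.82 to 0.020 (limma adjusted p = 0.0782). In all, 2 variant rows were higher, 7 lower and 3 did not pass, beside 36.5% higher and 37.7% lower among all genes (74.2% called). With quantile normalization 3 variant rows were higher and 5 lower. Among all genes with a mean of 500 to 20000, 30.3% were higher and 50.5% lower, with a median of -0.12. The 8 variant rows at that level had 0 higher and 6 lower, with a median of -0.13. H2afy2 (higher) and H3f3a-ps2 (lower) had a mean under 10 in one of the groups and entered the test through the groups in which they were high; the other 10 rows gave 1 higher and 6 lower.

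Among the clustered genes, 13 were higher in DAHB+O than in NaCl cells, 4 were lower and 18 did not pass, with a median of 0.37. Over all genes tested, 36.5% were higher and 37.7% lower, with a median of -0.014. Of the clustered calls, Hist1h1a (higher) and Hist1h4a (lower) had a mean under 10 in one of the groups compared. The 30 clustered genes with a mean of at least 10 in both groups gave 12 higher and 3 lower. Here too quantile normalization turned the balance, to 3 higher and 10 lower with a median of -0.062, and without DAHB+O replicate 1 the higher genes numbered 8. Genes with a mean of 10 to 50 had a median of 0.23 over all genes and 0.37 over the clustered genes; the difference was not tested. The largest rises were those of Hist1h4d, Hist1h3a and Hist1h2bk. Hist1h4d and Hist1h2bk were higher by 1.49 ± 0.16 (SE, limma adjusted p = 5.64e-07) and 1.07 ± 0.17 (SE, limma adjusted p = 3.48e-05). Hist1h3a, an H3 gene, stood at 29.3, 39.2 and 34.8 in the DAHB+O libraries, 27.9, 21.3 and 14.6 in the DAHB libraries and 20.7, 11.8 and 9.97 in the NaCl libraries, with a log2 fold change of 1.28 ± 0.31 (SE, limma adjusted p = 0.00148). Its level was highest in the DAHB+O libraries, without overlap. Hist1h3c, Hist1h1c and Hist1h2bj were higher by 0.95 ± 0.18 (SE, limma adjusted p = 0.000198), 0.77 ± 0.13 (SE, limma adjusted p = 4.69e-05) and 0.83 ± 0.14 (SE, limma adjusted p = 7.16e-05), and with quantile normalization none of the 3 passed. Hist2h2be, Hist1h2bc and Hist1h4i were lower by -1.13 ± 0.17 (SE, limma adjusted p = 3e-05), -1.04 ± 0.20 (SE, limma adjusted p = 0.000267) and -0.70 ± 0.093 (SE, limma adjusted p = 5.49e-06). Hist1h4a, an H4 gene at 9.44, 5.76 and 9.82 in DAHB+O and 15.5, 13.8 and 17.2 in NaCl libraries, was the other lower gene, by -0.85 ± 0.33 (SE, limma adjusted p = 0.0286), and it failed the threshold without NaCl replicate 1 or 3 or DAHB+O replicate 2 (adjusted p = 0.0608, 0.0837 and 0.11).

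The clustered genes were then divided by how their gene models end, which the choice of genes did not use. In 15 the model stopped within 100 bases after the stem-loop, in 18 it ran further, 8 had no 3′ UTR and 5 had a 3′ UTR without the loop. For DAHB against NaCl, the first kind gave 5 higher and 0 lower of 11 tested, with a median log2 fold change of 0.62. Models that ran past the loop gave 4 higher and 1 lower of 13, with a median of 0.25, those without a 3′ UTR 1 higher and 0 lower of 6, with a median of 0.27, and those with a 3′ UTR but no loop 1 higher (Hist1h1a) and 2 lower (Hist2h2be and Hist1h2bc) of 5, with a median of -0.36. Hist1h1a had a mean of only 9.31 in NaCl cells. Of all genes tested, 35.5% were higher and 38.4% lower. Among those with a mean of 10 to 50, 41.8% were higher and 8.72% lower, with a median of 0.43. With a mean of 50 to 500, the values were 46.2%, 27.8% and 0.19. For DAHB+O against DAHB, the medians of the 4 kinds of model were -0.017, 0.19, -0.27 and -0.48, with 1, 2, 0 and 1 genes higher and 0, 0, 1 and 2 lower. There, 11.3% of all genes with a mean of 10 to 50 were higher and 23.2% lower. With a mean of 50 to 500, 32.2% were higher and 26.1% lower. No difference between these kinds was tested, and near-identical copies limit them: over the 46 clustered genes a median of 44.8% of the 50-base windows also occurred in other genes' transcripts, with 18 genes above 50%.

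Promoters were compared because the clustered genes of a family share short elements. RefSeq promoters (GRCm38.p6) matched 41 clustered genes and 10 variant rows, and both strands of the 250 bases before the start were searched. The CCAAT box (CCAAT) occurred in 80.5% of the clustered promoters against 37.5% of all 27025 promoters, in all 30 H1, H2A, H2B and H3 promoters and in 3 of 11 H4 promoters. The TATA box (TATAAA) occurred in 56.1% against 14.3%. The octamer (ATTTGCAT) occurred in 4 H2A and 5 H2B promoters and in no H1, H3 or H4 promoter, which is 22.0% of the clustered promoters against 1.81% of all. For E2F, the letters TTTCGCGC occurred in 4 clustered promoters (0.300% of all) and TTTGGCGC in none (0.485% of all). The 120 bases before the start are shown for Hist1h2bk and Hist1h1a, which were higher in DAHB than in NaCl cells, for Hist1h4i, which was lower, and for the variant H3f3b, which was also lower; capitals mark these elements where they lie within the 120 bases.
Hist1h2bk, chr13:22035701-22035820, plus strand: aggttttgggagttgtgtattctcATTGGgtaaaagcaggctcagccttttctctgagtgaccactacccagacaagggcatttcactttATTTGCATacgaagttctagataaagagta
Hist1h1a, chr13:23763548-23763667, plus strand: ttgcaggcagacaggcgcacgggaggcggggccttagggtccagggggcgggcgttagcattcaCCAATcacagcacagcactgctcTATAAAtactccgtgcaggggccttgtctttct
Hist1h4i, chr13:22041363-22041482, minus strand: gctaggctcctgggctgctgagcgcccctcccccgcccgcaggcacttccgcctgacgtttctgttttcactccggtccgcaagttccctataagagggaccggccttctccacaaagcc
H3f3b, chr11:116024505-116024624, minus strand: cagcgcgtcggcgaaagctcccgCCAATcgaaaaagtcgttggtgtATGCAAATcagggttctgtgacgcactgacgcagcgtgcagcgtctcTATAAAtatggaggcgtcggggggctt
The promoters of Hist1h2bk and H3f3b both held the CCAAT box and the octamer. Whether any of these elements goes with the direction of change was not tested. A match of letters is a description and not a binding site.

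Most genes on the lists for handling histones were lower in DAHB than in NaCl cells. Among all 7563 genes tested with a mean of 500 to 20000, where most of these lie, 27.8% were higher and 54.0% lower, with a median log2 fold change of -0.16. The histone chaperones, which carry histones to and from DNA, gave 1 higher and 36 lower of 37 in DAHB against NaCl, with a median log2 fold change of -0.54. Nasp, which holds H3 and H4 in store, stood at 3570.2, 3327 and 3303 in the DAHB+O libraries, 2232, 1950.2 and 1786 in the DAHB libraries and 5575, 5399 and 5461 in the NaCl libraries. All DAHB libraries were lowest, with log2 fold changes of -1.47 ± 0.063 (SE, limma adjusted p = 2.17e-11) for DAHB against NaCl and 0.78 ± 0.063 (SE, limma adjusted p = 5.01e-08) for DAHB+O against DAHB. Ubn1, of the H3.3 chaperone complex HIRA, and Dnajc9, a partner of H3 and H4, were lower in DAHB than in NaCl cells by -0.92 ± 0.038 (SE, limma adjusted p = 1.6e-11) and -0.82 ± 0.035 (SE, limma adjusted p = 2.02e-11). Asf1b, an H3 and H4 chaperone, and Daxx and Anp32e, the chaperones of H3.3 and H2A.Z, were lower by -0.39 ± 0.051 (SE, limma adjusted p = 4.56e-06), -0.21 ± 0.050 (SE, limma adjusted p = 0.00159) and -0.30 ± 0.042 (SE, limma adjusted p = 1.08e-05); Daxx did not pass with quantile normalization (adjusted p = 0.515). The 1 higher gene was Spty2d1, at 0.17 ± 0.039 (SE, limma adjusted p = 0.000978). In DAHB+O against DAHB, 31 chaperones were higher, 3 lower and 3 did not pass, with a median of 0.39, beside 40.7% higher, 33.0% lower and a median of 0.036 among all genes with a mean of 500 to 20000. Mcm2, a helicase subunit that also binds H3 and H4, and the chaperone Set were higher by 1.06 ± 0.066 (SE, limma adjusted p = 3.33e-09) and 0.89 ± 0.056 (SE, limma adjusted p = 3.4e-09). Asf1b was higher there by 0.64 ± 0.051 (SE, limma adjusted p = 4.32e-08), Daxx by 0.33 ± 0.050 (SE, limma adjusted p = 3.47e-05) and Anp32e by 0.12 ± 0.042 (SE, limma adjusted p = 0.0184); without DAHB replicate 3 or DAHB+O replicate 2, Anp32e no longer passed (adjusted p = 0.0739 and 0.0574).

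Most mRNAs of the proteins that process histone mRNA and switch on the clusters were lower in DAHB than in NaCl cells: 2 were higher, 24 lower and 3 did not pass of 29, with a median of -0.40. Slbp, which encodes the stem-loop binding protein, stood at 2152, 2123 and 2100.4 in the DAHB+O libraries, 1759, 1585 and 1431 in the DAHB libraries and 3624, 3509 and 3636 in the NaCl libraries. The groups did not overlap, and the log2 fold changes were -1.18 ± 0.058 (SE, limma adjusted p = 1.04e-10) for DAHB against NaCl and 0.42 ± 0.058 (SE, limma adjusted p = 1.5e-05) for DAHB+O against DAHB. Npat, the coactivator of the clusters, and its partner Casp8ap2 were lower in DAHB than in NaCl cells by -0.65 ± 0.042 (SE, limma adjusted p = 1.81e-09) and -0.60 ± 0.048 (SE, limma adjusted p = 2.54e-08). Hinfp, which drives H4 genes, was lower by -0.998 ± 0.060 (SE, limma adjusted p = 7.96e-10), Cpsf1 by -0.77 ± 0.040 (SE, limma adjusted p = 1.68e-10) and Upf1, which takes part in histone mRNA decay, by -0.73 ± 0.043 (SE, limma adjusted p = 6.95e-10). The 2 higher genes were Pou2af1, the octamer coactivator known from B cells, at 0.77 ± 0.065 (SE, limma adjusted p = 4.45e-08), and Cstf2t at 0.24 ± 0.056 (SE, limma adjusted p = 0.00109); the summed B cell markers, given above, were lower in DAHB than in NaCl libraries. In DAHB+O against DAHB, 14 were higher, 3 lower and 12 did not pass, with a median of 0.16. Among all genes with a mean of 500 to 20000, 40.7% were higher and 33.0% lower there, with a median of 0.036. Casp8ap2 was higher by 0.59 ± 0.048 (SE, limma adjusted p = 6.59e-08), Fip1l1 by 0.35 ± 0.035 (SE, limma adjusted p = 5.46e-07), Eri1, an exonuclease that trims histone mRNA, by 0.32 ± 0.037 (SE, limma adjusted p = 2.41e-06) and Npat by 0.18 ± 0.042 (SE, limma adjusted p = 0.00138).

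S phase is the period in which clustered histone mRNA is made. All 41 genes on the S phase list were lower in DAHB than in NaCl cells, with a median log2 fold change of -0.94. In DAHB+O against DAHB, 40 were higher, 0 lower and 1 did not pass, with a median of 0.61. Among all genes with a mean of 500 to 20000, 27.8% were higher and 54.0% lower in DAHB against NaCl. In DAHB+O against DAHB, 40.7% of them were higher and 33.0% lower. Pold1, of DNA polymerase delta, and Mcm5 and Mcm10, of the replication machinery, were lower in DAHB than in NaCl cells by -1.26 ± 0.043 (SE, limma adjusted p = 2.25e-12), -1.44 ± 0.055 (SE, limma adjusted p = 7.56e-12) and -1.59 ± 0.066 (SE, limma adjusted p = 1.73e-11), and Rfc4, of the clamp loader, Prim1, of primase, and Pole, of DNA polymerase epsilon, were higher in DAHB+O than in DAHB cells by 1.06 ± 0.048 (SE, limma adjusted p = 1e-10), 0.98 ± 0.046 (SE, limma adjusted p = 1.68e-10) and 1.16 ± 0.056 (SE, limma adjusted p = 1.9e-10). Over the alternatives run, 39 to 41 of the list were lower and 0 higher in DAHB against NaCl, and 38 to 40 were higher in DAHB+O against DAHB. Hells, a chromatin remodeller, stood at 5281 ± 161 in DAHB+O cells, 2173 ± 276 in DAHB cells and 4987 ± 264 in NaCl cells (SD, n = 3 each). Mcm2 stands on this list and on that of the chaperones. The 7 genes on a list for mRNA cleavage and polyadenylation were all lower in DAHB than in NaCl cells, with a median of -0.27. Pcf11 and Nudt21 were lower by -0.83 ± 0.047 (SE, limma adjusted p = 4.09e-10) and -0.38 ± 0.043 (SE, limma adjusted p = 1.34e-06). In DAHB+O against DAHB, 3 of the 7 were higher, 2 lower and 2 did not pass, beside the shares of all genes given above.

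Cenpa encodes the centromeric form of H3, and its symbol lies outside the gene set. Unlike most genes on the S phase list, and like H3f3b, it was lower in DAHB+O than in DAHB cells. Cenpa stood at 1667, 1717 and 1749 in the DAHB+O libraries, 2202, 2226 and 2115 in the DAHB libraries and 5787, 5808 and 5877 in the NaCl libraries. The groups did not overlap, with DAHB+O lowest, and the log2 fold changes were -1.42 ± 0.038 (SE, limma adjusted p = 2.88e-13) for DAHB against NaCl, -0.35 ± 0.038 (SE, limma adjusted p = 1.24e-06) for DAHB+O against DAHB and -1.77 ± 0.038 (SE, limma adjusted p = 4.15e-14) for DAHB+O against NaCl. Hjurp, the chaperone of the CENP-A protein, was lower in DAHB+O than in NaCl cells by -1.13 ± 0.047 (SE, limma adjusted p = 1.45e-11). Among all genes with a mean of 500 to 20000, 30.3% were higher and 50.5% lower in DAHB+O than in NaCl cells, with a median of -0.12. Against NaCl, DAHB+O cells had 6 chaperones higher, 22 lower and 9 not passing, with a median of -0.18. The histone mRNA list had 5 higher, 19 lower and 5 not passing, with a median of -0.29, and the S phase list 5 higher, 28 lower and 8 not passing, with a median of -0.28. The cleavage and polyadenylation genes had 1 higher, 5 lower and 1 not passing, with a median of -0.47. Nasp, Slbp and Npat were lower in that comparison by -0.69 ± 0.063 (SE, limma adjusted p = 8.99e-08), -0.76 ± 0.058 (SE, limma adjusted p = 1.39e-08) and -0.47 ± 0.042 (SE, limma adjusted p = 7.45e-08), Tk1 and Mcm7 by -0.86 ± 0.050 (SE, limma adjusted p = 5.4e-10) and -0.82 ± 0.049 (SE, limma adjusted p = 7.12e-10), and Pou2af1 and Asf1b were higher by 1.18 ± 0.065 (SE, limma adjusted p = 3.37e-10) and 0.25 ± 0.051 (SE, limma adjusted p = 0.000417).

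**Figure D4:**
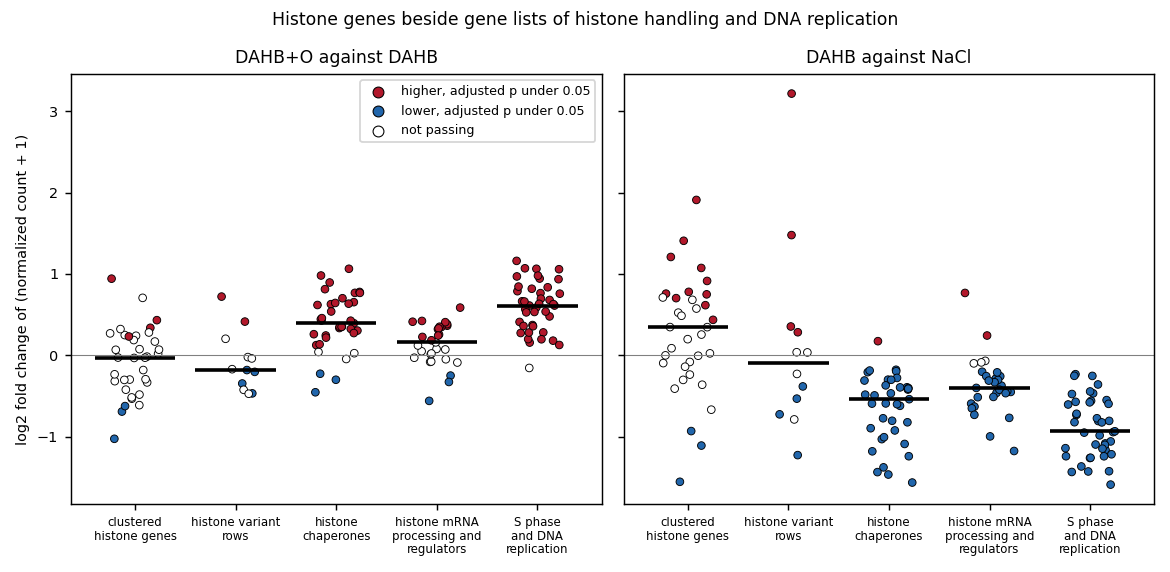
Log2 fold change of each tested gene (vertical axis, on the scale of log2 of normalized count + 1) in the clustered histone genes, the histone variant rows and 3 gene lists, for DAHB+O against DAHB and for DAHB against NaCl; red and blue points passed an adjusted p of 0.05 in limma as higher or lower, white points did not, and bars are medians. Against NaCl, the 41 S phase genes lie below 0 in DAHB cells with a median of -0.94, while the clustered histone genes spread to both sides with a median of 0.35. All genes with a mean of 10 to 50, where 25 clustered genes lie, had a median of 0.43. With quantile normalization the clustered median was -0.34. Clustered transcripts without a poly(A) tail were not measured.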

How the data were processed

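Gene expression was measured from poly(A)-enriched RNA in 9 libraries of CD8 T cells (DAHB+O, DAHB and NaCl, 3 each). The submitters' processing notes name Trim Galore 0.4.5, STAR 2.4, Picard, HTSeq 0.9.1, DESeq2 and the build mm10, without their roles. The deposited values are a signal on the scale of scaled gene counts: in 8 of the 9 libraries a value divided by the library's smallest step was a whole read for 100% of genes, within 0.001 read, and the ninth behaved likewise with a step near 1. The table held no other samples' columns; 21 rows carry a bare number as a name and 1 cell is blank. No source used here says if strand entered the counting.

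The main test was limma 3.58.1 (R 4.3.3) with a mean trend on log2(deposited value + 1), all 9 libraries in 1 fit, a minimum mean of 10, two-sided, Benjamini-Hochberg over all genes tested. It was also run on simulated data in which only a small part of the genes changed. That run cannot show how the calls depend on scaling where most genes change. edgeR 4.0.16 (quasi-likelihood) and DESeq2 1.42.0 on the recovered whole reads, other pseudocounts, minimum means, scalings, a replicate block and left-out libraries served as alternatives. Replicate numbers come from the titles, and nothing in the labels says that they pair samples, so they were not treated as pairs. Same-numbered samples of different groups correlated at 0.027 to 0.16, and others at -0.11 to 0.042. No source says that replicates came from separate mice, so the spread behind the p-values may be technical. Members, gene lists and tests were chosen with earlier results of these data known. Named genes were all tested variants, the 10 clustered genes with the highest mean, the 3 largest rises and falls per comparison, the smallest p-values of each list, and a fixed set; genes named beside a count of 5 or fewer were added after their values were seen. A gene of the chaperone list that the rule names is not reported here. Gene models are GENCODE vM21 (GRCm38).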

Additional observations from a re-analysis of the deposited data

How the results depend on the processing

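For DAHB against NaCl, quantile normalization gave 3 clustered genes higher and 12 lower, and a minimum mean of 50 left 5 higher. For DAHB+O against NaCl, quantile normalization gave 3 higher and 10 lower, a minimum mean of 50 left 5 clustered and 1 variant row higher, DESeq2 called 7 clustered genes higher, and leaving out 1 library gave 8 to 11. For DAHB+O against DAHB, DESeq2 called 1 clustered gene higher and 1 lower, quantile normalization and a minimum mean of 50 each left 0 lower, and leaving out 1 library gave 1 to 5 higher and 0 to 3 lower. The higher minimum changes which genes are tested; for the other settings the cause was not tested. On the recovered reads, edgeR called 5333 genes higher and 5173 lower for DAHB against NaCl, 4627 and 4417 for DAHB+O against DAHB, and 5373 and 5188 for DAHB+O against NaCl.

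Without Hist1h4i, the log2 ratio of the clustered sums was 0.29 instead of 0.035 for DAHB against NaCl and 0.33 instead of 0.11 for DAHB+O against NaCl. Without H3f3b, that of the variant sums was -0.16 instead of -0.23 for DAHB against NaCl and -0.24 instead of -0.34 for DAHB+O against NaCl. With all rows, on CPM of the recovered reads, the clustered ratio for DAHB+O against NaCl was 0.23, and the variant ratio was -0.22 for DAHB+O against NaCl and -0.023, instead of -0.11, for DAHB+O against DAHB.

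Of the 47 histone rows tested, the 28 named (12 variant, 16 clustered) kept direction and call in 1191 of their alternatives, lost the call in 70, gained it in 27 and changed sign in 29; the named genes of the lists kept both in 760 and lost the call in 8. Over all 35 clustered genes, quantile normalization lost 8 calls and gained 9, all lower, for DAHB against NaCl, and lost 10 and gained 6, all lower, for DAHB+O against NaCl. Under it the sign changed for DAHB against NaCl in Hist1h1c (-0.17), Hist1h1b (-0.34), Hist1h3g (-0.20) and Hist1h3a (-0.079). It changed for DAHB+O against DAHB in H3f3a (0.0020) and H3f3a-ps1 (0.025). It changed for DAHB+O against NaCl in H2afy (0.11, adjusted p = 0.0137 in limma), H2afz (0.099), H1f0 (0.10), H2afv (0.022), H2afj (-0.026) and Hist1h3e (-0.33). Hist1h3e for DAHB against NaCl, at -0.0063 on the deposited scale, came to 0.013 with TMM rescaling, 0.045 with edgeR, 0.033 with DESeq2 and -0.71 with quantile normalization (adjusted p = 0.00369 in limma). With 1 library left out, values near 0 crossed it. For DAHB against NaCl the range was -0.010 to 0.097 in H2afj, -0.17 to 0.0058 in Hist1h1e, -0.18 to 0.20 in Hist1h3e and -0.38 to 0.18 in Hist1h4f. For DAHB+O against DAHB it was -0.088 to 0.0023 in H3f3a, -0.11 to 0.044 in H2afj and -0.045 to 0.26 in Hist1h2bc, and for DAHB+O against NaCl -0.075 to 0.081 in H2afj and -0.34 to 0.061 in Hist1h3g.

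With the replicate number as a replicate block, 11 clustered genes were higher and 3 lower for DAHB against NaCl, 4 higher and 3 lower for DAHB+O against DAHB, and 13 higher and 4 lower for DAHB+O against NaCl; 5 variant rows instead of 4 were lower in the first, and Hist2h2be for DAHB+O against DAHB had an adjusted p of 0.0508 in limma. Same-numbered samples correlated at 0.027 to 0.16, all above 0, and others at -0.11 to 0.042. These are correlations of deviations from the group means, so they are not independent of each other, and the ranges overlapped. A weak structure shared by replicate number is possible and was not tested. The main test had no block because nothing in the labels says that the numbers pair samples. Depth limits the clustered genes, 11 of which had means under 10 and were not tested, and transcripts without a poly(A) tail were not measured.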
